A study of Mus musculus with 10 samples.

Results

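The 36 genes described here are the nuclear receptors of the liver. The rule lists them by name: the receptors for xenobiotics, bile acids, sterols, fatty acids, retinoids, thyroid hormone and steroids, their shared retinoid X receptor partners, and the orphan receptors of the same family. All 36 were found in the deposited table of 17359 genes. A filter on low counts left 34 of them among the 12789 genes tested. Vdr, the vitamin D receptor, had 0 to 3 expected counts in a library and was at 0 in 8 libraries, and Hnf4g had 3 to 14, so neither was tested.

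Nuclear receptors are transcription factors that bind DNA through paired zinc fingers, and many of them switch between corepressors and coactivators when a small lipophilic ligand enters their ligand-binding pocket. In liver they tie bile acid, cholesterol, fatty acid and drug metabolism to the supply of their ligands. The xenobiotic, bile acid, sterol, fatty acid, thyroid hormone and retinoic acid receptors pair with a retinoid X receptor, steroid receptors pair with themselves, and some orphans bind DNA alone.

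The study measured liver mRNA in mice on a high-fat diet (HFD), kept with or without a weekly cycle of calorie restriction. All 3 groups received the HFD. AL mice ate ad libitum as controls (n = 3, replicates 2, 3 and 4). LC livers were taken on day 3 of the cycle, a day with intake cut by 70%, after cuts of 50% on day 1 and 70% on day 2 (n = 4, replicates 1 to 4). RF livers were taken on day 7, the last of 3 unrestricted days that followed a cut of 50% on day 4 (n = 3, replicates 1 to 3). Strain, sex, age, the composition of the diet, the number of cycles completed and the hour of collection were not stated by the labels. The labels do not say that the samples came from separate animals, so the p-values below measure the spread between these samples, which may be technical.

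Libraries held 13871533 to 15899479 expected counts. Levels below are CPM, in which each expected count is divided by the TMM-scaled total of its library, given as mean ± SD over libraries. Levels of different genes are compared only in FPKM, which is per transcript length and carries no TMM scaling. A gene was called changed where the Benjamini-Hochberg adjusted p of edgeR's quasi-likelihood test was below 0.05 over all genes tested. The summed level of 10 hepatocyte markers lay at 92370 to 112429 CPM in AL, 65218 to 75207 in LC and 86106 to 91829 in RF. Alb was the largest part of that sum, at 58883 ± 8173 CPM in AL, 36726 ± 5893 in LC and 50341 ± 1364 in RF. Of the 10 markers, 6 were called lower at LC than at AL (median log2 fold change -0.48). Only 1 was called lower with library totals alone (median -0.16) and 1 with log2(FPKM + 1). Tat, which was not called, had 2520 ± 729 CPM in AL and 2763 ± 583 in LC. With library totals as the only scaling, the median log2 fold change of all genes moved by 0.31 at LC against AL and by -0.21 at RF against LC, and the share of called genes that were higher went from 50.7% to 86.5% and from 51.5% to 19.8%. TMM sets the median near 0, and the changes below are relative to it.

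The promoters of the 4 receptors with the largest called changes at LC against AL are shown first, chosen by the size of that change alone. Each run is the 250 bases before the most upstream transcript start in the RefSeq table for GRCm38.p6, 5′ to 3′ on the gene's strand. The table held 33 of the 36 receptors. Capitals mark matches, on either strand, to the nuclear receptor hexamer AGGTCA, the E-box CACGTG, the TATA motif TATAAA or the GC box GGGCGG.
Nr1i3, chr1:171213720-171213969, plus strand: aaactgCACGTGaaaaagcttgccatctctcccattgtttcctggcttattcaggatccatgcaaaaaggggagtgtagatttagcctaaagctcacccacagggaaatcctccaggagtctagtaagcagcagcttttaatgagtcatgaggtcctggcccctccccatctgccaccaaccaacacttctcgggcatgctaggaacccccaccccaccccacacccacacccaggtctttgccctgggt
Rarg, chr15:102257523-102257772, minus strand: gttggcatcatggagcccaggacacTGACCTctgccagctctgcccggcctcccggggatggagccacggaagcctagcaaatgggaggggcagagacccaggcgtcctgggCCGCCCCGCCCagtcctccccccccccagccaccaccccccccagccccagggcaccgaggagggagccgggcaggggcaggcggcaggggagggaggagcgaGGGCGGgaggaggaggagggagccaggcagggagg
Nr2f2, chr7:70366747-70366996, minus strand: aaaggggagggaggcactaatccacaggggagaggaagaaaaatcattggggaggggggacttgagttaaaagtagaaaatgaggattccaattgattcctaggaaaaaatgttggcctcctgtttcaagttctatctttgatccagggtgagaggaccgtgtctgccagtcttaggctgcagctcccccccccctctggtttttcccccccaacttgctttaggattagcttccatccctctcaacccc
Pparg, chr6:115360894-115361143, plus strand: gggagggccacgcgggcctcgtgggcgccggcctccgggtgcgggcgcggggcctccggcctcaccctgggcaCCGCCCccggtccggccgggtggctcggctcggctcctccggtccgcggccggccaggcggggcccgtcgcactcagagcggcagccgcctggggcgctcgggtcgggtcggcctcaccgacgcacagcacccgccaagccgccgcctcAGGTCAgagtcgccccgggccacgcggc
The Nr1i3 window held 1 E-box, whose first base lay 244 bases before the start. In Rarg a receptor hexamer lay at 225 and GC boxes at 138, 133 and 35, the first 2 of which overlap by 1 base. Pparg had a receptor hexamer at 28 and a GC box at 177, in a window of 82.4% G and C against a median of 52% over all promoters in the table. None of these motifs occurred in the Nr2f2 window. The receptor hexamer was in 5 of the 33 receptor promoters (15.2%) and in 13.8% of the 27025 genes in the table, and the E-box in 2 (6.06%) and 6.04%. The TATA motif was in 4 (12.1%) against 13%, and the GC box in 19 (57.6%) against 33%. These matches describe the letters of the windows.

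The receptors differed widely in level in the ad libitum liver. Nr1i3, which encodes the constitutive androstane receptor, had the highest mean at 204 ± 20 FPKM (SD, n = 3), and Nr1h4, the bile acid receptor FXR, came next at 135 ± 15 FPKM. The AL libraries of Nr1i3 did not overlap those of Nr1h4, and those of Nr1h4 did not overlap those of Hnf4a, at 90.6 ± 8.24 FPKM. Rxra, at 76.8 ± 3.27 FPKM, overlapped Nr1i2, at 75.4 ± 19.3, and the order of Nr1i2, Nr1h3, Ppara, Nr0b2 and Nr2f6 below it was likewise not separated between neighbours. Nr1h3 had 56.9 ± 6.06 FPKM, Ppara 52.8 ± 2.21, Nr0b2 47 ± 11.1 and Nr2f6 39.6 ± 6.56. Of the 36 receptors, 7 had a mean of at least 50 FPKM in AL, 7 lay between 10 and 50, 16 between 1 and 10, and 6 below 1. Those 6 were Nr4a2, Nr2f1, Nr2c2, Nr4a3, Hnf4g and Vdr. Nr1i3 and Nr1h4 held ranks 1 and 2 in all 3 groups, at 564 ± 36.2 and 261 ± 17.5 FPKM in LC (n = 4) and 184 ± 5.55 and 132 ± 14.3 FPKM in RF (n = 3).

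**Figure D1:**
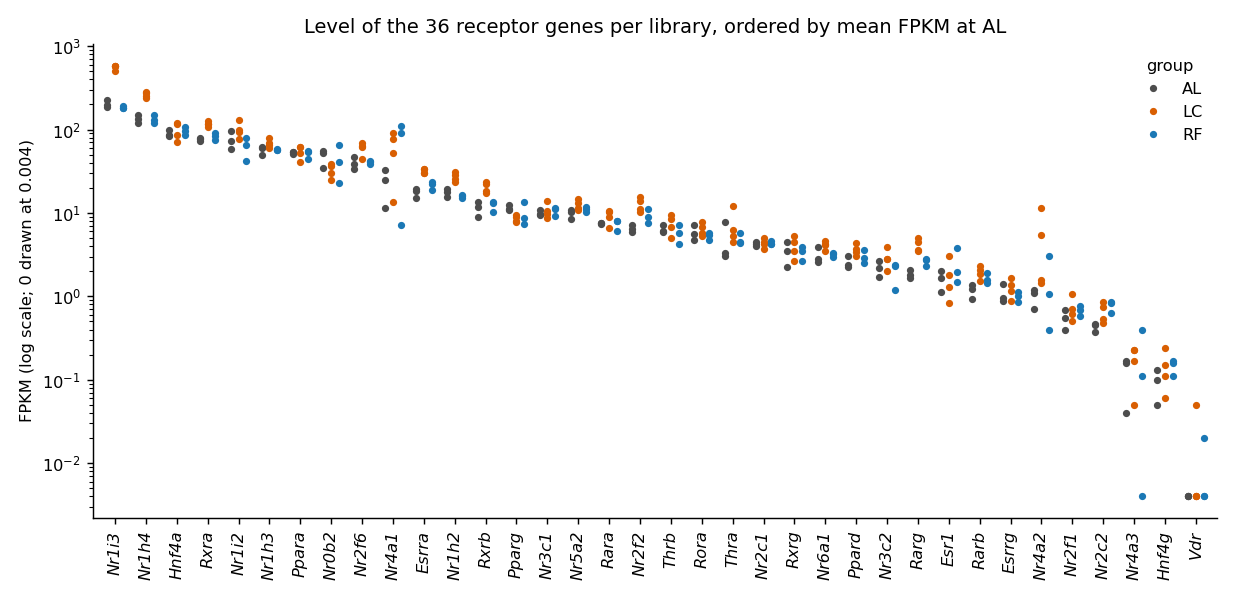
Level of the 36 receptor genes in each library, in FPKM on a log axis, ordered by the mean in AL; each point is a library, coloured by group, and values of 0 are drawn at 0.004. Nr1i3 and Nr1h4 lead in all 3 groups, the LC points of Nr1i3 lie above its AL and RF points, and Nr4a1 and Nr4a2 spread widely within LC and RF.

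On the restricted day, 8 of the 34 tested receptors differed from AL. Nr1i3, Rarg, Nr2f2, Nr1h4, Rxrb, Esrra and Nr1h2 were higher and Pparg was lower, while 26 did not pass. The 7 higher are 20.6% of those tested, where 16.0% of all genes were called higher, and the 1 lower is 2.94%, where 15.6% of all genes were called lower (31.5% in either direction). The median log2 fold change of the 34 was 0.13, and that of all genes tested was 0.05. At RF against LC, 5 receptors were called, all of them lower: Nr1i3, Nr1h4, Nr1h2, Rxrb and Esrra. They are 14.7% of the receptors tested, where 10.7% of all genes were called lower, 11.4% higher and 22.1% in either direction. The receptors' median there was -0.08, and the median of all genes tested was -0.02. These comparisons share the 4 LC libraries, so they are not independent, and the values of each stand side by side below.

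After 3 days of free feeding, edgeR's quasi-likelihood test called 0 of the 34 receptors different from AL. Only 7 of all genes tested were called there (0.0547%, with 0.0156% higher and 0.0391% lower). Nr2c2 and Nr2f2 had an unadjusted p below 0.05, and DESeq2 also called 0 of the receptors. The log2 fold changes at RF against AL ran from -0.43 to 1.47, with standard errors of 0.13 to 1.01, so differences of moderate size lie within the error of many of these genes.

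**Figure D2:**
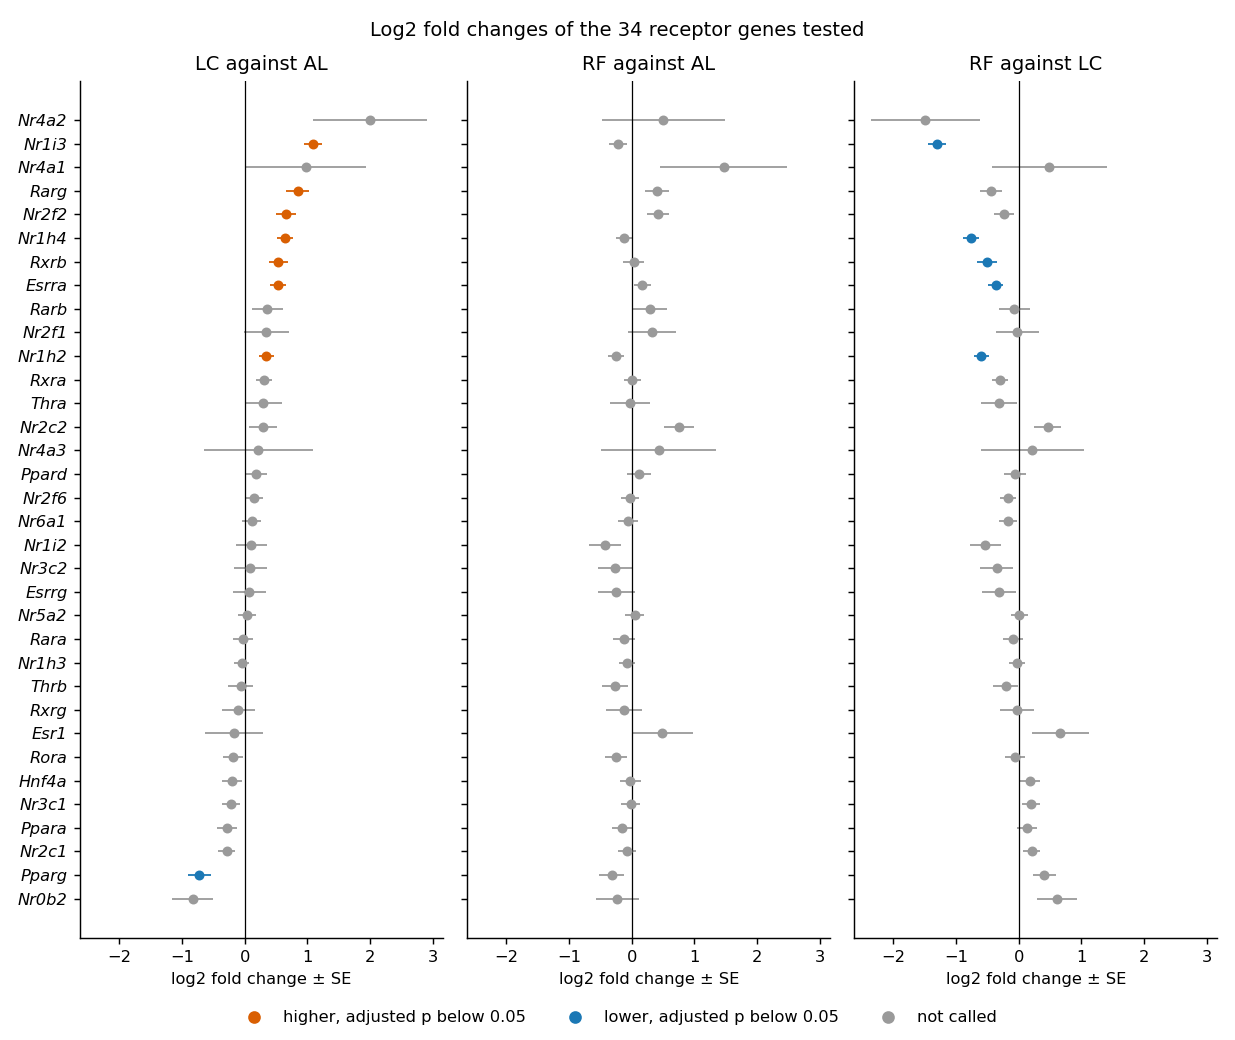
Log2 fold change ± SE of the 34 tested receptors in the 3 comparisons, ordered by LC against AL; orange marks genes called higher, blue genes called lower and grey genes not called. The largest called changes are those of Nr1i3, at 1.09 for LC against AL and -1.31 for RF against LC, and the NR4A genes have the widest error bars.

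Among the xenobiotic and bile acid sensors, 2 of the 4 tested were higher on the restricted day and both were lower again at RF. Nr1i3 (NCBI gene 12355) encodes CAR, which is kept in the cytoplasm and moves to the nucleus to switch on drug-metabolising enzymes. It had 269, 356 and 284 CPM in AL replicates 2, 3 and 4, then 653, 691, 561 and 680 CPM in LC replicates 1 to 4, and 277, 243 and 262 CPM in RF replicates 1 to 3. Every LC library lay above every AL and RF library, while AL and RF overlapped. The fitted level was 2.13-fold higher at LC than at AL (log2 1.09, SE 0.14, adjusted p = 0.0003), and RF was at 0.403 times LC (log2 -1.31, SE 0.14, adjusted p = 0.00015). RF did not pass against AL (log2 -0.22, SE 0.15, adjusted p = 0.61). The expected counts of Nr1i3 were not whole in any of the 10 libraries, so they are in part estimates.

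Nr1h4 (NCBI gene 20186) encodes FXR, which lowers bile acid synthesis when bile acids rise. Its level was 263, 240 and 244 CPM in the AL libraries, 392, 438, 357 and 371 CPM in the LC libraries and 225, 207 and 257 CPM in the RF libraries. LC was again apart from both other groups, which overlapped each other. The gene was 1.56-fold higher at LC than at AL (log2 0.65, SE 0.13, adjusted p = 0.0028) and RF was at 0.589 times LC (log2 -0.76, SE 0.13, adjusted p = 0.002). Nr0b2, the small heterodimer partner SHP, lacks a DNA-binding domain, represses other receptors and is a classic FXR target. It had 59.6, 64.1 and 38.3 CPM in AL, 22.4, 35.4, 33.8 and 29.6 CPM in LC, and 43.9, 24.4 and 70 CPM in RF. Its 4 LC libraries lay below all AL libraries and overlapped the RF range, and the difference from AL missed the threshold (log2 -0.83, SE 0.32, adjusted p = 0.074). DESeq2 (adjusted p = 0.015) and a fit to the compared groups alone (adjusted p = 0.0085) called it lower. Nr1i2, the pregnane X receptor PXR, had 179 ± 41 CPM in AL, 193 ± 50.3 in LC and 133 ± 40 in RF, with adjusted p of 0.77 for LC against AL and 0.14 for RF against LC. It was called lower with library totals alone at RF than at LC (log2 -0.73, adjusted p = 0.041), as with log2(FPKM + 1) (adjusted p = 0.043).

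The sterol sensors are the liver X receptors, which bind oxysterols and drive cholesterol efflux and lipid synthesis. Nr1h2 (LXR beta, NCBI gene 22260) was at 36.9, 33.2 and 34.8 CPM in AL, at 49.1, 49.3, 39.2 and 39.9 CPM in LC and at 29.2, 30.1 and 28.6 CPM in RF. Its 3 groups did not overlap, with LC highest and RF lowest. It was 1.27-fold higher at LC than at AL (log2 0.34, SE 0.12, adjusted p = 0.045) and RF was at 0.66 times LC (log2 -0.60, SE 0.12, adjusted p = 0.0051). The first of these calls was lost in 12 of 19 other settings, at adjusted p of 0.059 to 0.16. Nr1h3, the LXR alpha gene that is more abundant in liver, had 94.7 ± 3.98 CPM in AL, 91.6 ± 13.3 in LC and 89.8 ± 1.17 in RF, and its log2 fold change at LC against AL was -0.05 (SE 0.12, adjusted p = 0.8).

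Of the fatty acid sensors, Pparg was the only receptor called lower at LC. Pparg (NCBI gene 19016) is the adipogenic PPAR, low in lean liver and known to rise in fatty liver. It had 17.4, 20.4 and 20.9 CPM in AL, 10.9, 12.9, 12.3 and 11.3 CPM in LC, and 21.5, 13.8 and 11.7 CPM in RF. All LC libraries lay below all AL libraries, and the RF libraries ran from within the LC range to above the AL range. LC was at 0.606 times AL (log2 -0.72, SE 0.18, adjusted p = 0.0099), and the difference of RF from LC did not pass (log2 0.40, SE 0.19, adjusted p = 0.13). With library totals alone Pparg was still lower but not called (log2 -0.41, adjusted p = 0.096), as with log2(FPKM + 1) (log2 -0.38, adjusted p = 0.089). The sum of the 4 adipocyte markers in the table (Lep is not among them) was 56.6 to 149 CPM in AL, 10.4 to 28.4 in LC and 10.8 to 18.8 in RF. Cfd made up most of that sum in AL, at 49.2 to 142 CPM there, 2.83 to 18.5 in LC and 1.47 to 3.13 in RF, and 1 of the 2 tested markers was called lower at LC. Fabp4, the other, had 8.19 ± 2.03 CPM in AL, 8.69 ± 1.47 in LC and 11.6 ± 4.87 in RF. Cfd had 8.77 ± 7.26 CPM in LC and 2.07 ± 0.922 in RF, and Pparg had 11.8 ± 0.889 in LC and 15.7 ± 5.17 in RF. Neither gene was called at RF against LC by edgeR's quasi-likelihood test. The part of the adipocyte markers in the Pparg result was not tested. Adipoq reached at most 0.078 CPM and Plin1 at most 0.554 CPM in any library. In bulk liver fewer cells of a type and less RNA per cell cannot be told apart. Ppara, the fasting-activated regulator of fatty acid oxidation, had 412 ± 39.6 CPM in AL, 339 ± 66.7 in LC and 372 ± 40.5 in RF (LC against AL log2 -0.28, SE 0.16, adjusted p = 0.2). Ppard, the broadly expressed PPAR, had 7.9 ± 1.19, 8.92 ± 1.05 and 8.56 ± 1.44 CPM (adjusted p = 0.47 for LC against AL).

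Retinoid X receptors are the partners most of these sensors need to bind DNA, and 1 of the 3 was called. Rxrb (NCBI gene 20182) had 30.1, 23.3 and 27.4 CPM in AL, 44.4, 34.8, 32.8 and 44.5 CPM in LC, and 30.2, 22.8 and 29.4 CPM in RF. LC lay above AL and RF, which covered nearly the same range. It was 1.45-fold higher at LC than at AL (log2 0.54, SE 0.16, adjusted p = 0.018) and RF was at 0.703 times LC (log2 -0.51, SE 0.15, adjusted p = 0.032). The rise was not called without AL replicate 3 (adjusted p = 0.1) or AL replicate 4 (adjusted p = 0.054), and the fall was not called without LC replicate 1 or 4 or RF replicate 2 or 3 (adjusted p of 0.062 to 0.15). Rxra, the main retinoid X receptor of hepatocytes, had 391 ± 11.6 CPM in AL, 483 ± 43.7 in LC and 394 ± 36.6 in RF. Its LC libraries, at 451 to 548 CPM, lay above those of AL (382 to 404) and RF (356 to 429). It missed the threshold at LC against AL (log2 0.31, SE 0.13, adjusted p = 0.077) and was called higher with library totals alone (log2 0.62, adjusted p = 0.0017). RF against LC did not pass (log2 -0.30, SE 0.13, adjusted p = 0.1), though library totals alone called Rxra lower there. Rxrg had 5.41 ± 1.87, 5.06 ± 1.23 and 4.97 ± 0.927 CPM in AL, LC and RF.

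Retinoic acid receptors bind all-trans retinoic acid, made from the vitamin A that liver stores. Rarg (NCBI gene 19411) had 4.45, 5.38 and 5.66 CPM in AL, 11.1, 8.19, 9.42 and 8.47 CPM in LC, and 7.18, 6.13 and 7.23 CPM in RF. The 3 groups did not overlap, with AL lowest, RF between and LC highest. It was 1.8-fold higher at LC than at AL (log2 0.84, SE 0.18, adjusted p = 0.0035), while RF did not pass against LC (log2 -0.44, SE 0.17, adjusted p = 0.082) or against AL (log2 0.41, SE 0.19, adjusted p = 0.46). Rara had 20.2 ± 1.25 CPM in AL, 19.8 ± 3.55 in LC and 18.6 ± 2.81 in RF. Rarb had 3.52 ± 0.85, 4.53 ± 1.08 and 4.3 ± 0.853 CPM (adjusted p = 0.29 for LC against AL).

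The 5 thyroid hormone and steroid receptors had adjusted p of 0.26 or more in all 3 comparisons. Thrb, the main thyroid hormone receptor of liver, had 43 ± 3.9 CPM in AL, 41.3 ± 9.86 in LC and 35.7 ± 9.01 in RF (LC against AL log2 -0.06, SE 0.20, adjusted p = 0.84). Thra had 13.8 ± 5.35, 16.9 ± 6.5 and 13.6 ± 2.21 CPM; its counts were not whole in 9 libraries, and it overlaps Nr1d1 on the opposite strand, which libraries without strand cannot separate. Nr3c1, the glucocorticoid receptor, had 68.3 ± 2.3 CPM in AL, 58.9 ± 10.1 in LC and 67.5 ± 8.15 in RF (LC against AL log2 -0.21, SE 0.14, adjusted p = 0.26). Nr3c2, the mineralocorticoid receptor, had 13.1 ± 1.99, 13.9 ± 4.29 and 10.9 ± 3.64 CPM. Esr1, the estrogen receptor alpha gene, ranged from 4.25 to 15.8 CPM within LC alone and from 9.1 to 23.3 within RF, and its mean in AL was 10.3 ± 2.48 CPM.

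Hnf4a and Nr5a2, factors of hepatocyte identity and bile acid synthesis, had adjusted p of 0.35 or more in all 3 comparisons. Hnf4a had 410 ± 20.6 CPM in AL, 357 ± 70.6 in LC and 405 ± 44.7 in RF (LC against AL log2 -0.20, SE 0.16, adjusted p = 0.35). Nr5a2, the liver receptor homologue LRH-1, had 48.1 ± 7.98, 49.4 ± 5.89 and 49.7 ± 3.59 CPM (LC against AL log2 0.04, SE 0.14, adjusted p = 0.86). Hnf4g, at 0.389 ± 0.144 CPM in AL, was too low to test.

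Among the COUP transcription factors and testicular receptors, Nr2f2 was called. Nr2f2 (COUP-TFII, NCBI gene 11819) is an orphan receptor known from venous endothelium as well as hepatocytes. Its level was 21.4, 26.7 and 27.3 CPM in AL, 47.2, 33.5, 41.8 and 36.3 CPM in LC, and 40.7, 32.3 and 27.8 CPM in RF. LC and RF both lay above AL and overlapped each other. It was 1.58-fold higher at LC than at AL (log2 0.66, SE 0.16, adjusted p = 0.0085), RF did not pass against LC (log2 -0.24, SE 0.16, adjusted p = 0.29), and RF against AL had log2 0.42 (SE 0.17, adjusted p = 0.41). The summed level of 10 sinusoidal endothelial markers was 216 to 232 CPM in AL, 320 to 348 in LC and 285 to 336 in RF, with 4 of the 10 (Stab1, Stab2, Kdr and Oit3) called higher at LC than at AL. The other 6 did not pass, among them Lyve1 (4.97 ± 2.43 to 3.27 ± 1.72 CPM) and Pecam1 (9.69 ± 1.59 to 9.49 ± 1.72 CPM), and the median log2 fold change of the 10 was 0.08, beside 0.05 for all genes. The part of these markers in the result was not tested. Nr2f6, the most abundant of this group, had 70.7 ± 3.07 CPM in AL, 78.5 ± 13 in LC and 69.7 ± 3.37 in RF. Nr2c1 had 17.7 ± 0.584, 14.5 ± 1.89 and 16.7 ± 0.907 CPM (LC against AL log2 -0.29, SE 0.13, adjusted p = 0.11). Nr2c2 had 3.42 ± 0.262 CPM in AL, 4.17 ± 0.95 in LC and 5.77 ± 0.875 in RF, with counts that were not whole in any of the 10 libraries, and RF against AL did not pass (log2 0.75, SE 0.24, adjusted p = 0.3). Nr6a1, the germ cell nuclear factor, had 19.5 ± 3.45, 21 ± 2.69 and 18.6 ± 1.02 CPM. Nr2f1 stayed between 0.621 and 1.62 CPM in all libraries.

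Esrra, the estrogen-related receptor that drives mitochondrial genes together with PGC-1 coactivators, followed the pattern of a high LC level. Esrra (NCBI gene 26379) had 35.4, 33.5 and 40.3 CPM in AL, 54.3, 52, 47 and 58.1 CPM in LC, and 44.9, 41.8 and 35.8 CPM in RF. All LC libraries lay above the other 6, and AL and RF overlapped. It was 1.45-fold higher at LC than at AL (log2 0.54, SE 0.13, adjusted p = 0.0067), and RF was at 0.773 times LC (log2 -0.37, SE 0.13, adjusted p = 0.049). The second call was lost in 11 of 19 other settings, at adjusted p of 0.051 to 0.2. Esrrg had 6.47 ± 2.44 CPM in AL, 6.81 ± 1.93 in LC and 5.46 ± 0.709 in RF. Rora, which activates clock genes, had 65.3 ± 12, 57.3 ± 9.92 and 55 ± 7.08 CPM.

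**Figure D3:**
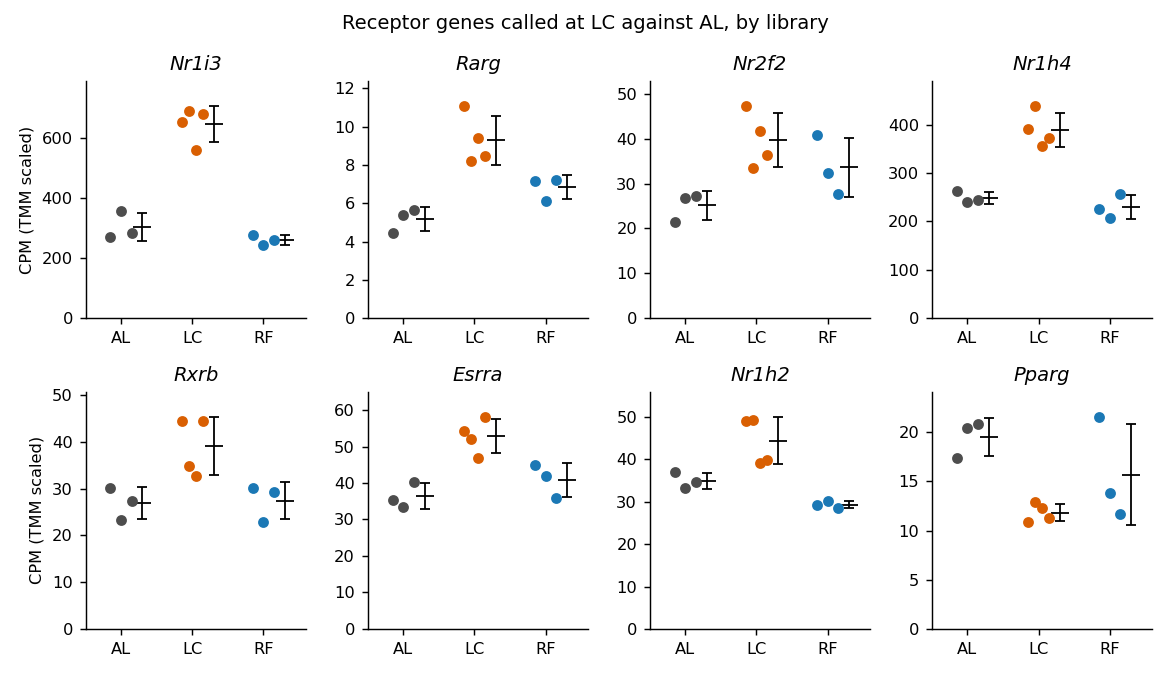
CPM of the 8 receptors called at LC against AL, with a point for each library and the mean ± SD of each group beside its points; each axis starts at 0. LC lies above every AL library in 7 panels and below every AL library in that of Pparg, and RF lies between the other groups for Rarg. The genes shown were selected by their call in this comparison, and how many of all genes separate in this way was not counted.

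The NR4A receptors are immediate early genes with no known need for a ligand, induced within minutes by hormones and stress. Nr4a1 had 27.4, 88.6 and 61.7 CPM in AL, 151, 28.3, 99.3 and 189 CPM in LC, and 16.9, 259 and 216 CPM in RF. The 3 groups overlapped, and RF held both the lowest and the highest library, which differed 15.3-fold. Nr4a2 had 2.30, 4.45 and 3.66 CPM in AL, 32, 4.43, 14.4 and 4.58 CPM in LC, and 1.28, 9.92 and 3.48 CPM in RF. Here LC replicates 1 and 3 stood above all other libraries, and the whole span was 25-fold. Neither difference from AL passed at LC, with log2 0.98 (SE 0.95, adjusted p = 0.47) for Nr4a1 and 2.00 (SE 0.91, adjusted p = 0.13) for Nr4a2. Nr4a3 lay between 0 and 2.13 CPM. The coefficient of variation of CPM within groups, averaged over the 3 groups, was 75.7% for Nr4a3, 72.2% for Nr4a2 and 63.4% for Nr4a1, against a median of 14.9% over the 34 tested receptors. The 9 other immediate early genes listed were Fos, Fosb, Jun, Junb, Egr1, Ier2, Atf3, Btg2 and Dusp1. They had 0 calls at LC against AL by edgeR's quasi-likelihood test, where 31.5% of all genes were called. Jun alone had an unadjusted p below 0.05 by that test. DESeq2 called 1 of the 9 lower, and library totals alone called 1 higher. Some of them also scattered widely within LC, with Fos at 63.4 ± 83.3 CPM, Fosb at 27.8 ± 33 and Atf3 at 40.2 ± 37.1. The spread was narrower for Junb, at 102 ± 37.8 CPM, and Dusp1, at 98 ± 29.8.

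**Figure D4:**
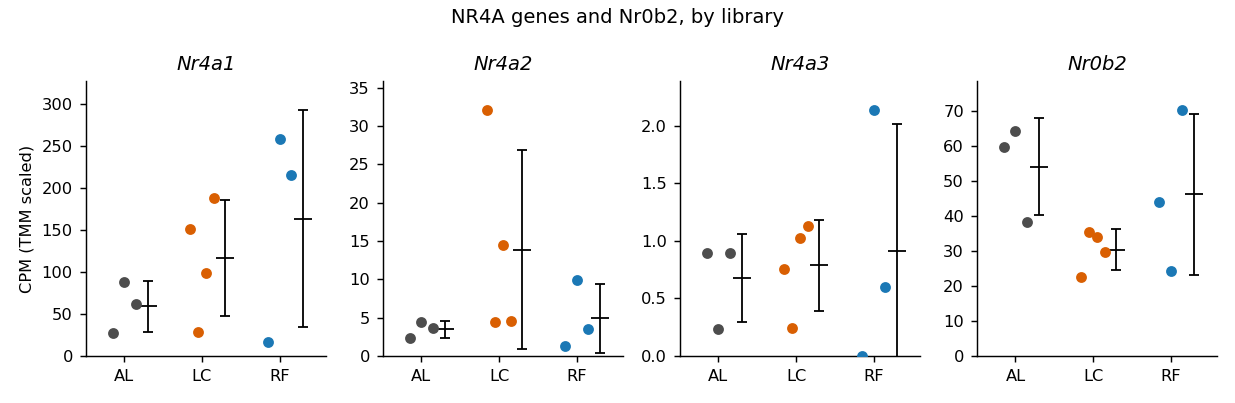
CPM of the 3 NR4A genes and Nr0b2 in each library, with the mean ± SD of each group; each axis starts at 0, where the lower bar of Nr4a3 at RF ends. Nr4a1 and Nr4a2 scatter within LC and RF so that the groups overlap, whereas the 4 LC points of Nr0b2 lie below its 3 AL points.

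Other genes of the pathway were followed in lists: nuclear receptors outside the 36, cofactors, enzymes and carriers of the ligands, and known targets of some of the receptors. Some genes stand in several lists, and Nr0b2 and Rarb are themselves receptors of the set. The counts of every list are to be read beside the shares of all genes tested. With TMM scaling in edgeR these were 16.0% called higher and 15.6% lower at LC against AL, and 11.4% and 10.7% at RF against LC. Other settings have other shares. Library totals alone called 5081 genes at LC against AL (86.5% of them higher) and 3397 at RF against LC (19.8% higher). For log2(FPKM + 1) these were 4999 (85.8% higher) and 3489 (20.3% higher). DESeq2 called 4249 (47.1% higher) and 3151 (51.6% higher). Of 5 other nuclear receptors tested, 2 were called, both higher at LC: Nr1h5 (FXR beta), from 7.96 ± 1.59 to 16.9 ± 4.43 CPM (log2 1.09, adjusted p = 0.0028), and Nr1d2 (REV-ERB beta), from 125 ± 25.1 to 186 ± 23.8 CPM (log2 0.57, adjusted p = 0.018). Their median log2 fold change was 0.40, beside 0.05 for all genes. Of 12 coactivators, 3 were called, all higher at LC (median 0.26), among them Ncoa3 (log2 0.70, adjusted p = 0.0041) and Ep300, a histone acetyltransferase (log2 0.53, adjusted p = 0.013). Of 10 corepressors, 2 were called, both higher (median 0.05): the demethylase gene Kdm1a (log2 0.71, adjusted p = 0.0042) and the deacetylase gene Sirt1 (log2 1.04, adjusted p = 0.011). With library totals alone the calls became 3, 9 and 5, all higher. Of 18 genes that supply or clear ligands, 4 were called, all lower at LC (median -0.38), with the vitamin D 25-hydroxylase gene Cyp2r1 (log2 -0.74, adjusted p = 0.0038) and Ttr, the carrier of thyroxine and of retinol-binding protein (log2 -0.47, adjusted p = 0.016), having the smallest p. Scaling by totals left 1 higher and 2 lower, and DESeq2 called 8 lower.

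Known targets were listed for only some of the receptors, and not for Esrra or Nr2f2. The levels of the receptor genes of the set are given above. The lists can pool genes that a receptor induces with genes that it lowers, so their counts do not show whether targets followed a receptor. Nr1i3 was higher at LC, and of 17 PXR and CAR targets 1 was called higher and 4 lower there (median -0.05). Aldh1a7 fell from 265 ± 77.9 to 84 ± 32.6 CPM (log2 -1.66, adjusted p = 0.0018) and Cyp2c55 from 1.36 ± 0.273 to 0.53 ± 0.218 CPM (log2 -1.34, adjusted p = 0.014). The 1 higher, named after its values were seen, was Cyp2b9, from 8.31 ± 6.18 to 47.6 ± 29.9 CPM (log2 2.52, adjusted p = 0.034). Cyp2b10 of the same list, also named after its values were seen, had a lower mean in LC. Its level was 1.58 ± 1.43 CPM in AL and 0.326 ± 0.344 in LC. At RF against LC 3 of the 17 were called, all higher. Scaling by library totals alone gave 4 higher and 4 lower at LC against AL and 3 higher and 2 lower at RF against LC, and log2(FPKM + 1) gave 4 higher and 2 lower, then 3 and 3. The Cyp2b and Cyp2c genes have near-identical copies between which reads are hard to divide, so their values are uncertain.

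For FXR, whose gene Nr1h4 was higher, 1 of 11 targets tested was called higher and 5 lower at LC (median -0.64), and 4 were higher and 1 lower at RF against LC. Scaling by library totals alone gave 1 higher and 3 lower at LC against AL, and DESeq2 gave 1 and 8. The list holds Cyp7a1, Cyp8b1 and Slc10a1, which FXR is known to lower, beside genes that it induces. The smallest p belonged to Apoc2, an activator of lipoprotein lipase (log2 -0.78, adjusted p = 0.0045), and Pltp, the phospholipid transfer protein gene (log2 -2.05, adjusted p = 0.011). The 11 LXR targets divided into 2 higher and 3 lower (median -0.02). Scd1, the stearoyl-CoA desaturase gene, fell from 5295 ± 1789 to 238 ± 109 CPM (log2 -4.48, adjusted p = 0.00031), and Mylip, whose product degrades the LDL receptor, rose from 4.3 ± 0.399 to 10.7 ± 2.55 CPM (log2 1.31, adjusted p = 0.00081).

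Of 23 PPARA targets, 6 were called at LC, all lower (median -0.33), with Fabp1, the liver fatty acid-binding protein gene, from 8522 ± 512 to 4572 ± 798 CPM (log2 -0.90, adjusted p = 0.00083) and the carnitine-acylcarnitine carrier gene Slc25a20 (log2 -0.52, adjusted p = 0.013) leading by p. With library totals alone 2 were higher and 1 was lower, so the direction of this list rests on the scaling. Of 8 PPARG targets tested, 5 were lower and 1 higher (median -1.72), the same counts as with library totals alone. Cd36, a fatty acid uptake gene, fell from 86.8 ± 27.7 to 39.1 ± 4.52 CPM (log2 -1.15, adjusted p = 0.00078), and Mogat1, a glyceride synthesis gene, from 6.5 ± 3.25 to 1.34 ± 0.722 CPM (log2 -2.28, adjusted p = 0.0018). That list includes Cfd and other adipocyte markers, and Pparg was lower in the same comparison. Plin4 of the list, named after its values were seen, went the other way. Its level was 81.4 ± 28.1 CPM in AL and 178 ± 65.1 in LC. At RF against AL the median of the 8 was -1.34, with 0 called.

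Hnf4a itself did not pass, while 9 of 12 HNF4A targets were called lower and 1 higher at LC (median -0.52). F9, the coagulation factor IX gene, fell from 154 ± 24.7 to 75.4 ± 3.83 CPM (log2 -1.03, adjusted p = 0.00024) and Otc, of the urea cycle, from 676 ± 84.2 to 296 ± 51.5 CPM (log2 -1.19, adjusted p = 0.00026). Under library totals alone, 3 were lower and 1 higher. Ttr and Cps1 of this list are also among the hepatocyte markers whose summed level was lowest in LC, and the part of those markers in the counts was not tested. Of 7 thyroid hormone receptor targets, 2 were called, both lower (median -0.72): Thrsp, a lipogenic gene (log2 -2.74, adjusted p = 0.0024), and Gpd2 (log2 -0.72, adjusted p = 0.0094). Among 14 glucocorticoid receptor targets 2 were higher and 1 lower (median -0.05), with Cdkn1a, a cell cycle inhibitor gene, lower (log2 -1.87, adjusted p = 0.0063) and the kinase gene Sgk1 higher (log2 0.73, adjusted p = 0.008).

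Of 6 retinoic acid receptor targets 1 was higher and 1 lower (median -0.01): Cyp26b1, which degrades retinoic acid (log2 1.53, adjusted p = 0.022), and the transglutaminase gene Tgm2 (log2 -0.60, adjusted p = 0.019). Of 5 genes with ROR and REV-ERB elements 1 was called, Elovl3, a fatty acid elongase gene, which was lower (log2 -1.41, adjusted p = 0.0056). With library totals alone the medians of the PXR and CAR, LXR, glucocorticoid and retinoic acid receptor targets turned from below 0 to 0.26, 0.29, 0.27 and 0.30.

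**Figure D5:**
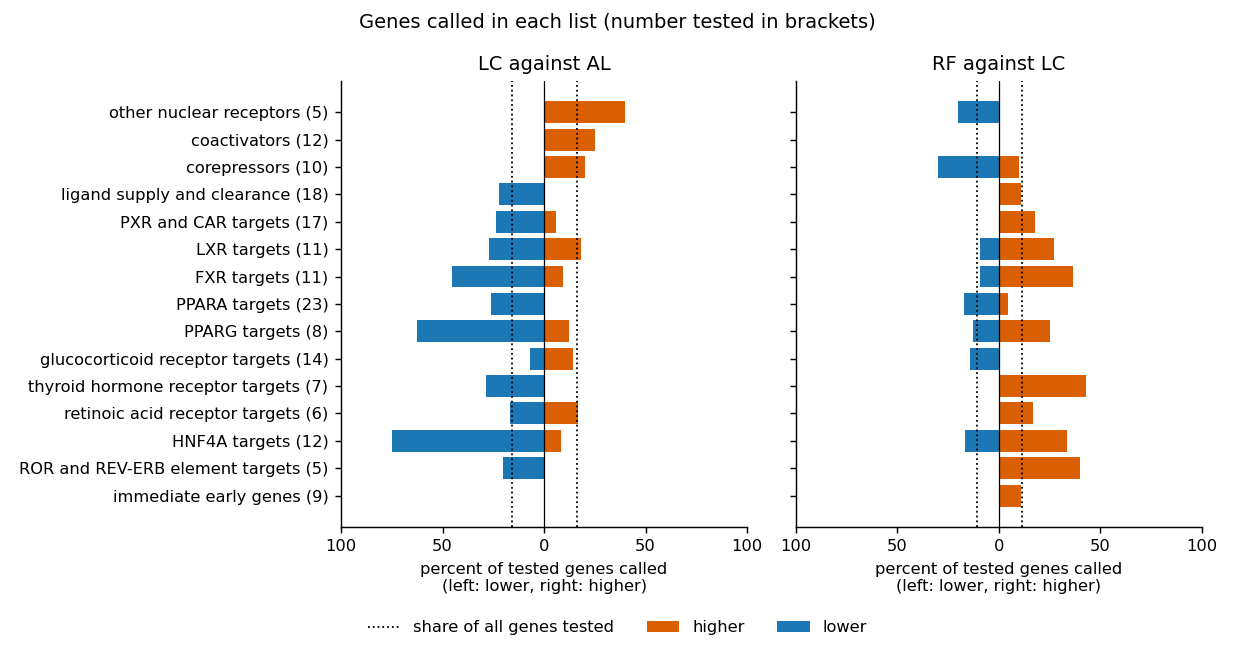
Percent of the tested genes of each list called higher (orange, right) or lower (blue, left) at LC against AL and at RF against LC; dotted lines mark the percent of all genes tested, 16.0 and 15.6 in the first panel and 11.4 and 10.7 in the second. The longest bars at LC against AL are the lower calls of the HNF4A and PPARG targets, 9 of 12 and 5 of 8 genes.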

How the data were processed

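Liver mRNA of 10 samples was sequenced. Per the labels' protocols, it was enriched by poly(A) tail, libraries kept no strand, and RNA integrity numbers were 6.6 to 8.5. The deposited expected counts are the authors' estimated counts, of which 10.9% were not whole, and the deposited FPKM were scaled by length and depth. The submitters' processing notes name HISAT, Bowtie2 and GRCm39, and no counting program is given in the labels. The promoter windows are of another build, so no coordinates were joined.

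Rounded counts were filtered with filterByExpr, scaled by TMM and fitted with edgeR 4.0.16 (glmQLFit, robust; R 4.3.3), using all 10 libraries and 1 mean per group. The 3 comparisons were adjusted (Benjamini-Hochberg) over 12789 genes. The SE was taken as the log2 fold change, without sign, divided by the root of F. The 36 receptors, the lists and the tests were chosen with earlier results of these data known. Called receptors are given in every library, and each list by the 2 called genes of smallest p at LC against AL. The numbers of the replicates were not taken to pair them: the correlation of deviations was -0.0462 to 0.252 over 8 same-numbered pairs, and 2 of these, both of LC with RF, were over 0.1. Alternatives used DESeq2 1.42.0, limma 3.58.1 on log2(FPKM + 1) and log2(FPKM + 0.1), other scalings and filters, the compared groups alone, a replicate block and each library left out. The steps were tested on simulated data.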

Additional observations from a re-analysis of the deposited data

Results flagged for a closer look

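Nr2f1, the COUP-TFI gene, had 1 LC library far from the others. LC replicate 3 was at 1.62 CPM and the other 3 LC libraries lay between 0.923 and 1.00 CPM, so that 0.882 of the group's range was the gap to this library. Only the LC group, with 4 libraries, was large enough for this check. It was applied to the 34 tested receptors, and chance flags about 1 in 20 such groups.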

How the results depend on the processing

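Of the 13 calls of single receptors, 8 held in all 19 alternative settings: Nr1i3, Nr1h4, Rarg, Nr2f2 and Esrra at LC against AL, and Nr1i3, Nr1h4 and Nr1h2 at RF against LC. No receptor that was called changed direction. Receptors called lower at LC against AL numbered 2 with DESeq2 and with the compared groups alone, and 0 with library totals alone, log2(FPKM + 1) and log2(FPKM + 0.1), and the last of these called 11 higher. At RF against LC the receptors called lower were 8 with library totals alone, 9 with log2(FPKM + 1) and 9 with log2(FPKM + 0.1). Of all genes, these settings called 3397, 3489 and 3377 there, with 19.8%, 20.3% and 20.6% of them higher. At LC against AL they called 5081, 4999 and 5009 genes, with 86.5%, 85.8% and 85.7% of them higher. The counts of receptors under these settings are to be read beside these numbers. Over the fits that leave out 1 library, 1 to 2 receptors were lower at LC against AL, with 2 without LC replicate 2, RF replicate 2 or RF replicate 3. At RF against LC, 3 to 5 were lower in those fits, with 3 without LC replicate 1, LC replicate 4, RF replicate 2 or RF replicate 3, and 0 to 1 were higher, with 1 without RF replicate 2. Over all genes, those fits called 2110 to 4353 at LC against AL (2110 without AL replicate 3 and 2557 without AL replicate 4), 1 to 13 at RF against AL and 1435 to 3141 at RF against LC (1435 without RF replicate 2 and 1642 without RF replicate 3). At RF against AL, DESeq2 called 99 genes, the fit with no filter on low counts 13, log2(FPKM + 1) 1 and log2(FPKM + 0.1) 1. With a replicate block, 6 receptors were higher and 1 was lower at LC against AL, and 6 were lower at RF against LC, and all genes called were 3858, 5 and 3230. The block called Nr1i2 lower at RF against LC (log2 -0.57, adjusted p = 0.035). Between LC and RF, replicates 1, 2 and 3 of LC each correlated best with the RF replicate of their own number (0.252, 0.185 and 0.0487). For LC replicate 3 the value with RF replicate 2 was close, at 0.0381. RF replicate 3 correlated best with LC replicate 4 (0.117), and AL replicate 3 had 0.109 with LC replicate 2. The labels give no pairing, and these values do not establish one. Depth limits the receptors with few counts in a library: Vdr (0 to 3), Hnf4g (3 to 14), Nr4a3 (0 to 32) and Nr2f1 (9 to 30). The small groups limit differences near 0.5 on the log2 scale.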
